A study of Mus musculus with 12 samples.

Results

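The 47 genes described here encode the machinery that copies DNA in S phase, the stage of the cell cycle in which the genome is duplicated. They were taken by symbol from a list of genes that was chosen with earlier results of these data known. All 47 were found among the 31017 gene symbols of the count table. They passed the filter on low counts that left 12079 genes for testing. The cells were 4T1, an established line from a mouse mammary carcinoma, kept in 3D within gels of collagen I, and 12 RNA libraries were made. The labels name 2 collagen densities, 1.2 and 2.4 mg/ml, without saying which applied to a library. All cells had been nucleofected with Cas9 and a guide RNA, and the groups were ETV4 knockout with FGF, control guide with FGF, ETV4 knockout without FGF and control guide without FGF, with 3 libraries each. Cells of the FGF groups were given FGF2 (40 ng/ml) and FGF10 (25 ng/ml). Every culture spent a first day in 10% serum and then 4 days in 2% serum. ETV4 is an ETS-family transcription factor of the PEA3 group, a known effector of FGF receptor signalling. All 6 knockout libraries share a further tag in their names that the labels do not explain; the labels state neither a pool nor a single clone, and if it is a clone, its clonal origin and its genotype cannot be told apart. Whether replicates are separate cultures is not stated either, and the p-values cover the spread among the libraries as given, which may be technical.

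Replication starts when the origin recognition complex, with Cdc6 and Cdt1, loads the Mcm2 to Mcm7 helicase onto DNA in G1. Cdc45 and the GINS complex then turn the loaded helicase on, DNA polymerase alpha with primase lays down primers, and polymerases delta and epsilon extend them while held to DNA by the sliding clamp Pcna. Many genes of this machinery are textbook targets of E2F transcription factors, which are released from the RB family of pocket proteins as cells pass from G1 into S phase. In bulk RNA, fewer cells in S phase and less transcript per cell cannot be told apart.

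Library totals ran from 18229429 to 23193244 counts, and the members together took 0.525% to 0.641% of the counts of a library. Gene positions are those of GENCODE vM21 models on GRCm38 (mm10). The deposited values are read counts; the levels below are TMM-scaled CPM, and a gene was called, higher or lower, where the Benjamini-Hochberg adjusted p of the edgeR quasi-likelihood test was under 0.05. No pair of replicates was a duplicate, since their counts differed by a chi-square per degree of freedom of 3.26 or more. The library labelled ETV4 knockout without FGF, replicate 2, stood apart: its chi-square per degree of freedom against its replicates was 70.6 and 69.5, ribosomal protein genes took 7.68% of its counts against 5.67% and 5.93% in replicates 1 and 3, and 36 of the 47 members lay above their group mean in it. Control replicate 2 with FGF differed from its replicates to a lesser degree (chi-square per degree of freedom 11.2 and 8.99). Ribosomal protein genes took 6.58% of its counts against 5.82% and 5.89% in replicates 1 and 3, and 37 members lay above their group mean in it. Of the markers of other cell types, fibroblast genes summed to at most 15.9 CPM, leukocyte genes to at most 11.5 CPM and endothelial genes to at most 0.701 CPM in any library, and 1 of 5, 1 of 5 and 0 of 3 of them passed the filter. Of these 13 genes, 5 had no count in any library, 2 fibroblast, 2 leukocyte and 1 endothelial. The 5 epithelial markers summed to 3888 CPM or more in every library. Of them, Cdh1 and Epcam were called lower in knockout cells without FGF (log2 fold change -0.46 ± 0.08 and -0.43 ± 0.08) and Epcam and Krt8 with FGF (-0.42 ± 0.08 and -0.43 ± 0.13). The other 3 had positive values without FGF, so that the median of the 5 was 0.08, and all 5 were negative with FGF (median -0.28). Of the markers of other cell types, Cd68 was called higher without FGF (0.47 ± 0.17) and Pdgfra with FGF (0.51 ± 0.18). The part of these markers in the results was not tested.

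The targeted gene itself was still transcribed. Etv4 stood at 116, 159 and 116 CPM in knockout cells, against 168, 162 and 167 CPM in control cells. With FGF it stood at 115, 120 and 113 CPM in knockout cells, against 154, 173 and 167 CPM in control cells. Knockout libraries lay below control libraries in both settings, with the library labelled knockout replicate 2 nearest to control. The exact two-sided permutation p was 0.1 in each setting, the smallest that 3 against 3 libraries allow. The adjusted p was 0.017 without FGF (log2 fold change -0.35 ± 0.11 SE) and 0.0020 with FGF (-0.51 ± 0.11). Cutting by Cas9 at the site set by a guide RNA can change the DNA sequence and need not lower the transcript. The cause of the Etv4 levels was not tested.

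Replication genes were often called higher and rarely lower in ETV4 knockout cells without FGF. With FGF, higher and lower calls were about equal in number in the main fit, and their balance differed between fits. Without FGF, the summed level of the 47 genes averaged 6439 ± 492 CPM in knockout cells and 5267 ± 89.3 CPM in control cells (SD, n = 3 each). The ratio was 1.22, and the knockout libraries stood at 6121, 7005 and 6190 CPM, with replicate 2 the highest. With FGF the summed level averaged 5566 ± 55.6 CPM in knockout cells and 5194 ± 134 CPM in control cells, a ratio of 1.07. By this TMM-scaled sum the knockout libraries lay above the control libraries in both settings. As a share of unscaled counts they overlapped with FGF. The shares were 0.544%, 0.541% and 0.537% in knockout cells, against 0.525%, 0.543% and 0.535% in control cells. Without FGF, 23 of the 47 genes were called higher in knockout cells and 1 lower. The share of all 12079 genes called was large, 45.8%, with 22.5% higher and 23.3% lower, so the higher calls stood above the background share and the lower calls under it. Since the list was chosen with earlier results of these data known, this is a description and not an independent test. The median log2 fold change was 0.22 over the 47 genes and -0.01 over all genes. With FGF, 9 were called higher and 8 lower, against 18% and 22.2% of all genes (40.3% in either direction), and the median was 0.10 against -0.01. In this main fit the counts with FGF stood near the background. When only the compared groups were fitted, 18 members were called higher and 10 lower with FGF, against 27.4% and 29.6% of all genes. Without the library labelled knockout replicate 2, the counts were 24 higher and 7 lower without FGF and 20 higher and 12 lower with FGF, while 26.3% and 28.2% of all genes were called higher and lower without FGF and 28.1% and 30.5% with FGF.

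Read gene by gene, 9 members were called higher in both settings, 14 were called higher without FGF and not called with FGF, 7 were called lower with FGF and not called without it, Mcm4 was lower in both, and 16 were called in neither. In these counts a gene called in a single setting is not thereby shown to differ between settings: no member passed the test of that difference, which is given with the FGF effect. By library, 27 members had all knockout values above all control values without FGF and 2 had them below, against 25.5% and 28% of all genes. With FGF the numbers were 20 above and 13 below, against 29.7% and 31.7% of all genes.

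**Figure D1:**
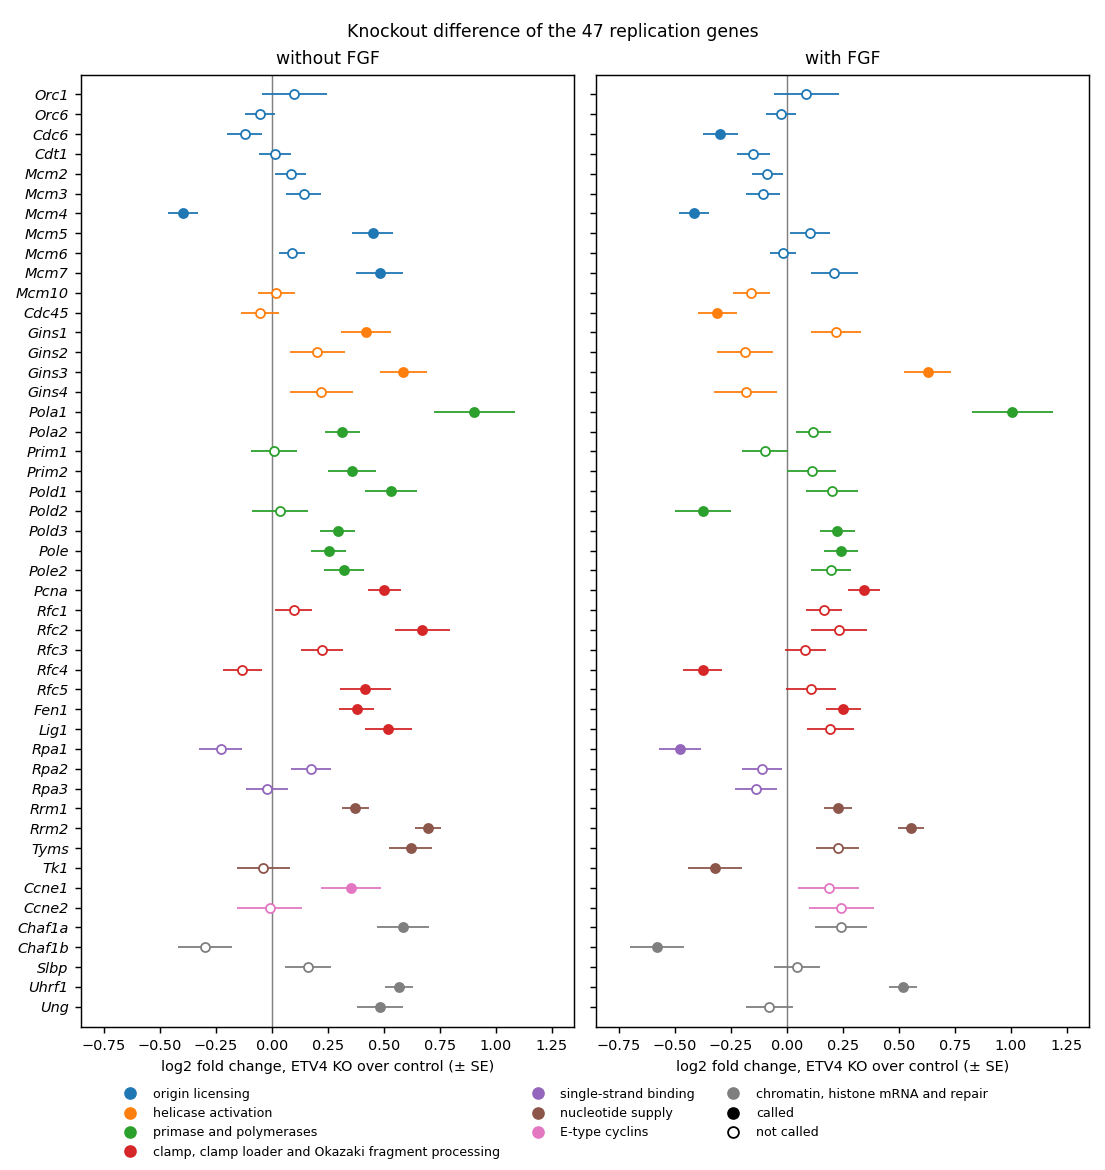
Log2 fold change of each of the 47 genes in ETV4 knockout over control cells (x axis, ± SE), without FGF on the left and with FGF on the right, coloured by role; filled points passed the adjusted p of 0.05. Without FGF 23 filled points lie right of 0 and 1 left of it, and with FGF 9 lie right and 8 left.

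Of the 10 origin licensing genes, Mcm5 and Mcm7 were called higher and Mcm4 lower in knockout cells without FGF, and Mcm4 and Cdc6 were called lower with FGF. The 2 higher calls without FGF are near the 22.5% of all genes. The shares of all genes called lower were 23.3% without FGF and 22.2% with FGF. Mcm5 (chr8:75109569-75128439), a subunit of the helicase ring, stood at 422, 559 and 436 CPM in knockout cells, against 344, 342 and 352 CPM in control cells. With FGF added, its level was 371, 360 and 363 CPM in knockout cells, against 330, 351 and 338 CPM in control cells. The groups did not overlap in either setting, but with FGF the gap was narrow. The log2 fold change was 0.45 ± 0.09 without FGF (adjusted p = 0.0014) and 0.10 ± 0.09 with FGF (adjusted p = 0.39).

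Mcm7 (chr5:138164583-138172422), another subunit of the ring, stood at 402, 570 and 426 CPM in knockout cells, against 331, 334 and 336 CPM in control cells. In the FGF groups it stood at 389, 372 and 369 CPM in knockout cells, against 317, 345 and 314 CPM in control cells. All knockout libraries lay above all control libraries, and replicate 2 without FGF was far above the others. The log2 fold change was 0.48 ± 0.11 without FGF (adjusted p = 0.0025) and 0.21 ± 0.11 with FGF (adjusted p = 0.13). Without the library labelled knockout replicate 2 it was 0.31 without FGF (adjusted p = 1.83e-05). Mcm4 (chr16:15623897-15637400) went the other way and lay below control in every knockout library. It stood at 172, 155 and 165 CPM in knockout cells, against 208, 213 and 228 CPM in control cells, and with FGF at 165, 156 and 160 CPM in knockout cells, against 214, 207 and 218 CPM in control cells. Its log2 fold change was -0.40 ± 0.07 and -0.41 ± 0.07 (adjusted p = 0.00037 without FGF and 0.00030 with FGF).

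The other subunits of the ring, Mcm2, Mcm3 and Mcm6, had log2 fold changes of 0.08 to 0.14 without FGF and of -0.11 to -0.02 with FGF, none called. The ring needs each of its 6 subunits, so the 6 genes can be set side by side per exon length. The length is that of all annotated exons of a gene merged, 6956 bases for Mcm2 and 3752 for Mcm3. The order of the genes therefore depends on the annotation. In knockout cells without FGF, Mcm5 and Mcm7 had 118 ± 18.9 and 105 ± 20.5 CPM per kb of exon, Mcm6 and Mcm3 75.3 ± 2.88 and 74.5 ± 7.22, Mcm4 45.7 ± 2.39 and Mcm2 25.8 ± 1.13. In control cells without FGF, Mcm5 had 86.6 ± 1.31, Mcm7 75.4 ± 0.600, Mcm6 70.6 ± 0.519, Mcm3 67.5 ± 2.46, Mcm4 60.2 ± 2.88 and Mcm2 24.4 ± 0.635. By this measure Mcm2 was lowest and Mcm4 next lowest in both genotypes. The gap between Mcm4 and the subunits above it was wider in knockout cells, a difference that was not tested. Without division by length the order of Mcm2 and Mcm4 differed between genotypes. Mcm4 averaged 164 CPM and Mcm2 180 CPM in knockout cells without FGF, against 216 and 170 CPM in control cells without FGF. Of the loading factors, Orc1 and Orc6, subunits of the origin recognition complex, and Cdt1 were not called in either setting. Cdc6, the ATPase that helps to load the ring, was called lower with FGF, at 46.3 ± 3.78 CPM in knockout cells and 56.9 ± 1.92 CPM in control cells (log2 fold change -0.30 ± 0.08, adjusted p = 0.0080).

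**Figure D2:**
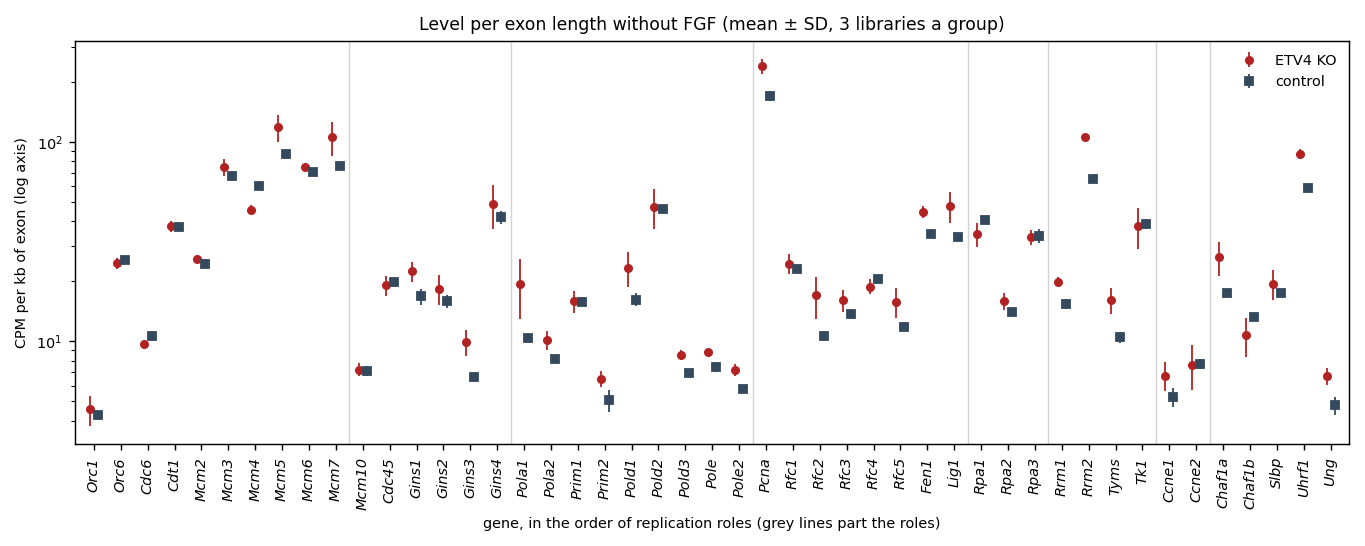
Mean level per exon length of the 47 genes without FGF (y axis, CPM per kb of exon on a log scale; bars are SD over 3 libraries), knockout left of control for each gene. Pcna is the highest of the 47 in both genotypes, at 240 CPM per kb in knockout cells and 169 in control cells, and Orc1 the lowest, at 4.55 in knockout cells and 4.26 in control cells. The length is that of all annotated exons of a gene merged, so the order of the genes depends on the annotation.

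The promoters of licensing genes often hold E2F words, and those of some called genes are shown here so that the letters can be set beside the values. RefSeq promoter windows of the build GRCm38.p6, 250 bases before to 50 after the start site, were held for 39 of the 47 members; for genes with several windows (5 members) the first listed was read. The E2F words searched on both strands were TTTCCCGC, TTTGGCGC, TTTCGCGC and TTTGCCGC, which can overlap each other. At least 1 of them stood in 13 of the 39 member windows (33.3%), in 4.24% of the 9313 windows of tested genes and in 2.32% of all 27025 windows. By role, 7 of 9 licensing windows, 4 of 7 of primase and polymerases, 1 of 3 of helicase activation and 1 of 7 of the clamp group held one, and none of the other 13 windows did. RefSeq starts can differ from those of the GENCODE models used for gene positions. The Mcm7 window lies within the GENCODE gene, and the Gins3 word lies past the GENCODE start. In 4 members called higher without FGF, the 250 bases before the RefSeq start site hold the E2F word in capitals. Sequences are written 5′ to 3′ on the strand of the gene:
Mcm5, chr8:75109259-75109508, plus strand: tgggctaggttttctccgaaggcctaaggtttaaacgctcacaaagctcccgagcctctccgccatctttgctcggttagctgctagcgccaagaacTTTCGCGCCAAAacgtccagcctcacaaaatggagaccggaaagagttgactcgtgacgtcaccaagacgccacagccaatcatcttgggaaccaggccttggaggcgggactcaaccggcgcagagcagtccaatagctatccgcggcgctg
Mcm7, chr5:138171884-138172133, minus strand: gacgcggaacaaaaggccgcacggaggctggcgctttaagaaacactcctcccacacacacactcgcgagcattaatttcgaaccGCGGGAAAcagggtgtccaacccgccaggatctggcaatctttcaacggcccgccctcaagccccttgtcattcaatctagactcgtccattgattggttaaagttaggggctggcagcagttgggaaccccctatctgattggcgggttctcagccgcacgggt
Gins3, chr8:95633309-95633558, plus strand: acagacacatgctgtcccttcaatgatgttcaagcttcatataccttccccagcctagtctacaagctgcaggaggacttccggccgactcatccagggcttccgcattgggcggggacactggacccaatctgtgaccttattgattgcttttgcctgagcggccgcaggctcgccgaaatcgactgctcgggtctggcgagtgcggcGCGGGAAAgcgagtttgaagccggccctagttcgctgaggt
Pola1, chrX:93632156-93632405, minus strand: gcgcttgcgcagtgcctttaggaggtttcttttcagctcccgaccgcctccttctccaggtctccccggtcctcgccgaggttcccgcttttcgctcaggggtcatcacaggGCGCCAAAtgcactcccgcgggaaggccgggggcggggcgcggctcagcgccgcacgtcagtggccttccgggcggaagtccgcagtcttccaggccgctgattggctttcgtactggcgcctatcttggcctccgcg

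In the Mcm5 window 2 words on opposite strands overlap in the single run of capitals. The first base of the word lay 153 bases before the RefSeq start site in Mcm5, 165 in Mcm7, 41 in Gins3 and 138 in Pola1. Mcm7 holds a further word just past its RefSeq start. Pold1 and Pold3, 2 polymerase delta subunits called higher without FGF, hold theirs there too, as short pieces show:
Mcm7, chr5:138171849-138171878, minus strand: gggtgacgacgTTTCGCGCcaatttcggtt
Pold1, chr7:44548766-44548787, minus strand: cgtatcttgtgGCGGGAAAagc
Pold3, chr7:100121467-100121496, minus strand: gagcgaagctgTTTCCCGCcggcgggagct
Calls were about as frequent with the word as without it: 7 of the 13 members with an E2F word and 12 of the 26 without it were called higher in knockout cells without FGF. Of the other words searched on both strands, CCAAT stood in 24 of the 39 member windows (61.5%) against 39.3% of tested genes, and the ETS core CCGGAA in 17 (43.6%) against 29.9%. The CHR word TTTGAA, known from genes of G2 and mitosis, stood in 4 (10.3%) against 11.5%. A match is a stretch of letters, not a measured binding site.

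Of the 6 helicase activation genes, which turn the loaded ring into a running helicase, 2 were called higher in knockout cells without FGF, and 1 higher and 1 lower with FGF. Over all genes, 22.5% were called higher without FGF, and 18% higher and 22.2% lower with FGF, so these few calls are near the background. Gins3 (chr8:95633453-95645060), a GINS subunit, stood at 25.8, 31.2 and 23.5 CPM in knockout cells, against 18.7, 16.8 and 18.1 CPM in control cells. Under FGF it had 26.7, 25.4 and 24.0 CPM in knockout cells, against 16.1, 16.5 and 16.7 CPM in control cells. Every knockout library was above every control library in both settings, by a log2 fold change of 0.59 ± 0.10 without FGF and 0.63 ± 0.10 with FGF (adjusted p = 0.00057 and 0.00037). Gins1 was called higher without FGF, at 34.0 ± 3.85 CPM in knockout cells and 25.4 ± 2.40 CPM in control cells (log2 fold change 0.42 ± 0.11, adjusted p = 0.0080), and not with FGF (0.22 ± 0.11, adjusted p = 0.13). Gins2 and Gins4 had log2 fold changes of 0.20 and 0.22 without FGF and of -0.19 and -0.18 with FGF, none called. Cdc45, the helicase cofactor, was called lower with FGF, at 56.3 ± 1.76 CPM in knockout cells and 69.8 ± 3.91 CPM in control cells (log2 fold change -0.31 ± 0.09, adjusted p = 0.011). Mcm10, which helps origins to fire, was called in neither setting (0.02 and -0.16). The exons of Gins2 share 67.3% of their bases with Gse1 on the opposite strand, and since the strand setting of the counting is not given, its counts are uncertain.

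Of the 9 primase and polymerase genes, 7 were called higher and none lower without FGF, and 3 higher and 1 lower with FGF. Over all genes, 22.5% were called higher and 23.3% lower without FGF, and 18% and 22.2% with FGF. Pola1 (chrX:93304767-93632155), the catalytic subunit of DNA polymerase alpha, stood at 207, 106 and 200 CPM in knockout cells, against 93.9, 89.7 and 90.9 CPM in control cells. With FGF the values were 173, 171 and 174 CPM in knockout cells, against 89.7, 79.7 and 88.5 CPM in control cells. The knockout libraries were above control throughout, and the library labelled knockout replicate 2 was close to the control level. The log2 fold change was 0.90 ± 0.18 without FGF (adjusted p = 0.0013) and 1.01 ± 0.18 with FGF (adjusted p = 0.00067), a fold of 1.87 and 2.01. Without that library it was 1.15 without FGF.

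The catalytic subunits of the other polymerases also rose without FGF. Pold1, of polymerase delta, averaged 114 ± 22.7 CPM in knockout cells and 78.6 ± 5.81 CPM in control cells (log2 fold change 0.53 ± 0.12, adjusted p = 0.0022), and Pole, of polymerase epsilon, 98.3 ± 4.37 CPM in knockout cells and 82.5 ± 3.97 CPM in control cells (0.25 ± 0.08, adjusted p = 0.016). Pola2, Prim2, Pold3 and Pole2, the accessory and primase subunits, rose by 0.29 to 0.36 on the log2 scale without FGF. With FGF, Pole and Pold3 remained among the called genes (0.24 ± 0.08 and 0.23 ± 0.08, adjusted p = 0.024 and 0.036). Pold2, the second subunit of polymerase delta, was not called without FGF (0.04) and was called lower with FGF, at 66.0 ± 2.94 CPM in knockout cells and 85.6 ± 4.85 CPM in control cells (-0.37 ± 0.12, adjusted p = 0.028). Prim1, the catalytic subunit of primase, was called in neither setting (0.01 and -0.10).

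The clamp, its loader and the enzymes that process Okazaki fragments, the short pieces made on the lagging strand, had 5 of 8 genes called higher without FGF and none lower. The shares of all genes called higher and lower were 22.5% and 23.3%. Pcna (chr2:132249162-132253314), the sliding clamp, stood at 540, 632 and 554 CPM in knockout cells, against 395, 392 and 432 CPM in control cells. In the presence of FGF it stood at 519, 520 and 510 CPM in knockout cells, against 409, 420 and 390 CPM in control cells. The groups were well apart in both settings, with a log2 fold change of 0.50 ± 0.07 without FGF and 0.34 ± 0.07 with FGF (adjusted p = 0.00011 and 0.0019). Rfc2 (chr5:134581366-134601805), a clamp loader subunit, stood at 96.4, 137 and 88.5 CPM in knockout cells, against 66.3, 67.1 and 68.3 CPM in control cells. With FGF it stood at 81.8, 83.2 and 81.0 CPM in knockout cells, against 68.8, 71.3 and 69.3 CPM in control cells. All knockout libraries again lay above control, by a log2 fold change of 0.67 ± 0.12 without FGF (adjusted p = 0.00072) and 0.23 ± 0.12 with FGF (adjusted p = 0.15).

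Rfc4 (chr16:23113943-23127737), another loader subunit, was the exception. It stood at 26.6, 31.5 and 28.5 CPM in knockout cells, against 31.6, 31.5 and 31.6 CPM in control cells, and with FGF at 23.6, 24.9 and 23.0 CPM in knockout cells, against 31.9, 32.6 and 28.3 CPM in control cells. Without FGF, replicate 2 of the knockout nearly reached the control values, and with FGF the groups were apart. The log2 fold change was -0.13 ± 0.09 without FGF (adjusted p = 0.23) and -0.38 ± 0.09 with FGF (adjusted p = 0.0037). Fen1, the flap nuclease, was higher in both settings (0.38 ± 0.08 and 0.25 ± 0.08, adjusted p = 0.0016 and 0.020). Lig1, the ligase that joins the fragments, and Rfc5 were called higher without FGF (0.52 ± 0.11 and 0.42 ± 0.11, adjusted p = 0.0014 and 0.0083) and not with FGF (0.19 and 0.11), and Rfc1 and Rfc3 were not called. Without the library labelled knockout replicate 2, Rfc5 was at 0.27 without FGF (adjusted p = 0.0035). Processed pseudogenes named for Pcna and for Tyms exist in the annotation, and how reads that fit several places were counted is not given.

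None of the 3 subunits of RPA, the complex that coats exposed single strands, was called without FGF. Rpa1 (chr11:75298166-75348324), the large subunit, stood at 175, 223 and 177 CPM in knockout cells, against 215, 229 and 231 CPM in control cells. With FGF added, its level was 167, 151 and 162 CPM in knockout cells, against 209, 237 and 221 CPM in control cells. The groups overlapped without FGF through replicate 2 of the knockout and were apart with FGF, with a log2 fold change of -0.23 ± 0.09 (adjusted p = 0.062) and -0.48 ± 0.09 (adjusted p = 0.0013). Without that library, Rpa1 was called lower without FGF as well (-0.35, adjusted p = 3.71e-05). Rpa2 and Rpa3 had log2 fold changes of 0.17 and -0.02 without FGF and of -0.11 and -0.14 with FGF, none called.

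Genes of nucleotide supply held the clearest knockout difference of the 47. Rrm2 (chr12:24708241-24714146), the regulated subunit of ribonucleotide reductase, which makes deoxynucleotides, stood at 298, 283 and 294 CPM in knockout cells, against 185, 175 and 179 CPM in control cells. In the FGF groups it stood at 292, 284 and 282 CPM in knockout cells, against 193, 196 and 195 CPM in control cells. Replicates lay close together and the genotypes far apart, so that the log2 fold change was 0.70 ± 0.06 without FGF and 0.55 ± 0.06 with FGF (adjusted p = 1.03e-06 and 7.78e-06), the smallest adjusted p among the members in each setting. Its partner Rrm1 rose by 0.37 ± 0.06 and 0.23 ± 0.06 (adjusted p = 0.00035 and 0.0098). Tyms (chr5:30058202-30073617), thymidylate synthase, stood at 88.5, 115 and 91.1 CPM in knockout cells, against 62.7, 60.2 and 68.6 CPM in control cells. Under FGF it had 75.8, 70.3 and 73.2 CPM in knockout cells, against 60.4, 62.6 and 64.5 CPM in control cells. The groups were apart in both settings, more widely without FGF (0.62 ± 0.10, adjusted p = 0.00020) than with it (0.23 ± 0.10, adjusted p = 0.076). Tk1, the thymidine kinase of the salvage pathway, was not called without FGF (-0.04) and was called lower with FGF, at 157 ± 8.0 CPM in knockout cells and 195 ± 5.69 CPM in control cells (-0.32 ± 0.12, adjusted p = 0.049).

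**Figure D3:**
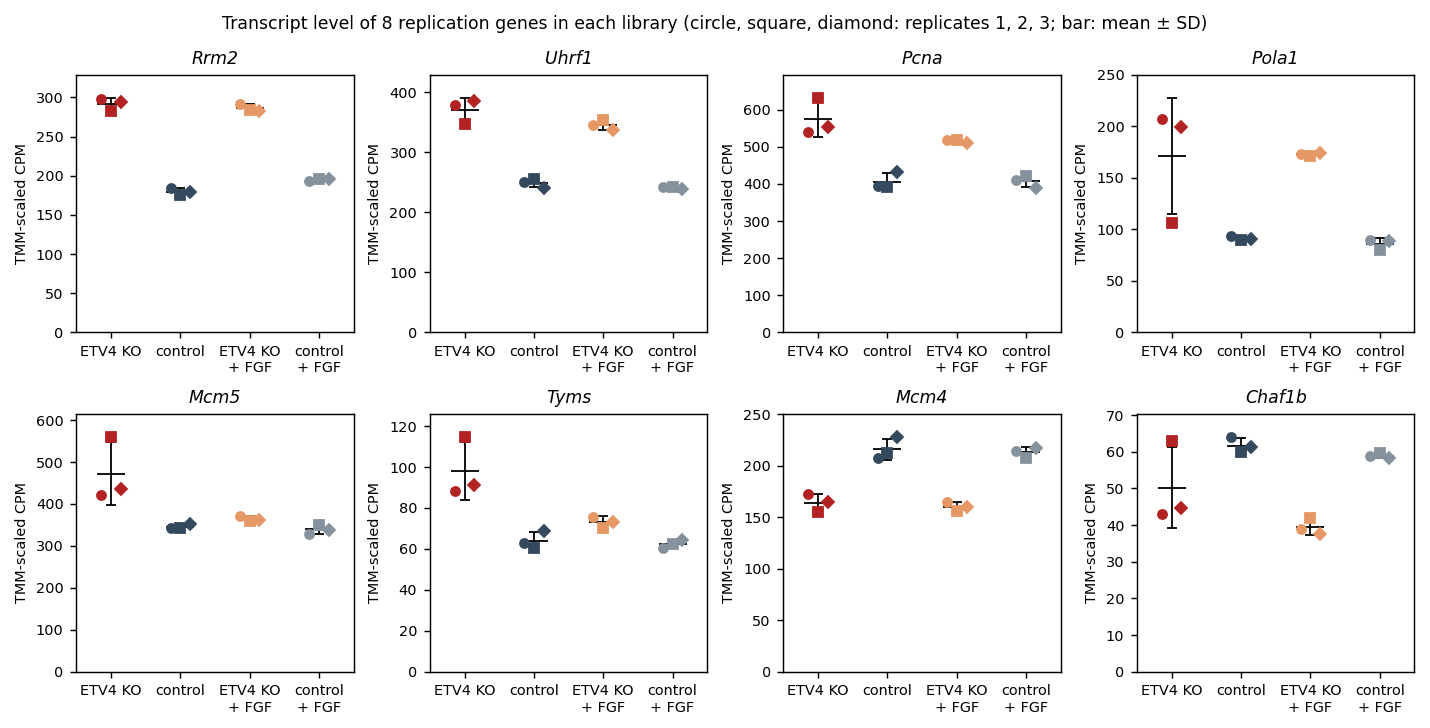
Level of 8 members in each of the 12 libraries (y axis, TMM-scaled CPM, starting at 0; symbols are replicates 1, 2 and 3 and bars the mean ± SD of 3 libraries). In ETV4 knockout cells without FGF, replicate 2 (square) is the highest of its group for Pcna, Mcm5, Tyms and Chaf1b and the lowest for Rrm2, Uhrf1, Pola1 and Mcm4.

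Of the E-type cyclins, which activate Cdk2 at the entry to S phase, Ccne1 was called higher in knockout cells without FGF and Ccne2 was not called. Ccne1 (chr7:38097984-38107534) stood at 15.3, 21.1 and 17.4 CPM in knockout cells, against 14.4, 15.2 and 12.3 CPM in control cells. With FGF the values were 16.1, 15.8 and 14.1 CPM in knockout cells, against 11.8, 14.6 and 14.1 CPM in control cells. Knockout values lay just above control without FGF and overlapped them with FGF (0.35 ± 0.13, adjusted p = 0.045, and 0.19 ± 0.14, adjusted p = 0.30). The call sat at the threshold and was lost in 13 of 20 alternative settings (adjusted p up to 0.16). Those include 10 of the 12 fits that left out 1 library, all but those without knockout replicate 1 and without control replicate 1 with FGF; without the library labelled knockout replicate 2 the value was 0.23 (adjusted p = 0.12).

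Genes that restore chromatin behind the fork lay on opposite sides of control. Uhrf1 (chr17:56303321-56323486), which brings the maintenance DNA methyltransferase to newly copied DNA, stood at 378, 346 and 385 CPM in knockout cells, against 251, 256 and 241 CPM in control cells. In the presence of FGF it stood at 346, 354 and 337 CPM in knockout cells, against 242, 242 and 239 CPM in control cells. The genotypes were far apart in both settings, with a log2 fold change of 0.57 ± 0.06 and 0.52 ± 0.06 (adjusted p = 1.15e-05 without FGF and 2.67e-05 with FGF). The large and middle subunits of chromatin assembly factor 1, which places histones on new DNA, diverged. Chaf1a (chr17:56040439-56072289) stood at 202, 286 and 212 CPM in knockout cells, against 153, 150 and 162 CPM in control cells, and with FGF at 191, 181 and 187 CPM in knockout cells, against 154, 175 and 144 CPM in control cells. All its knockout libraries lay above control (0.59 ± 0.12, adjusted p = 0.0012, without FGF and 0.24 ± 0.12, adjusted p = 0.12, with FGF).

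Chaf1b (chr16:93883901-93906115) stood at 43.1, 63.1 and 44.6 CPM in knockout cells, against 64.0, 59.9 and 61.3 CPM in control cells, and with FGF at 38.9, 41.9 and 37.6 CPM in knockout cells, against 58.9, 59.6 and 58.3 CPM in control cells. Except for replicate 2 of the knockout without FGF, which was among the control values, its knockout libraries lay below control (-0.30 ± 0.12, adjusted p = 0.055, without FGF and -0.58 ± 0.12, adjusted p = 0.0018, with FGF). Without that library its log2 fold change without FGF was -0.49 (adjusted p = 1.01e-06). Exons of Fen1 share 78.8% of their bases with the antisense gene Gm10143, and those of Chaf1a share 52.5% of their bases with Ubxn6 on the opposite strand, which leaves the counts of both uncertain, as do smaller overlaps for Orc1 with Gm12743 (10.8%), Ccne2 with Ints8 (17.4%), Rfc2 with Lat2 (15.1%), Rfc4 with Eif4a2 (12.7%) and Rfc5 with Wsb2 (10.7%). Ung, the uracil glycosylase, was called higher without FGF, at 36.5 ± 3.53 CPM in knockout cells and 26.1 ± 2.67 CPM in control cells (0.48 ± 0.10, adjusted p = 0.0021), and with FGF was at 27.9 ± 2.77 CPM in knockout cells and 29.5 ± 0.673 CPM in control cells. Slbp, which binds histone mRNA, was called in neither setting.

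Several further knockout calls were lost when a single library was left out. Without FGF, the call of Prim2 was lost without control replicate 2 (adjusted p = 0.082) and that of Pole without control replicate 3 or knockout replicate 1 (0.071 and 0.051). With FGF, Tk1 kept its call in 3 of 12 such fits, those without a knockout library grown in the absence of FGF (adjusted p of 0.060 to 0.13 in the others). The call of Pold2 with FGF was lost without control replicate 2 or 3 or any knockout library of that setting (0.050 to 0.090), and that of Cdc45 without knockout replicate 1 (0.050). With FGF, Fen1 lost its call without replicate 1 or 3 of either genotype (0.067 to 0.084), Pold3 without the same 4 libraries or control replicate 1 without FGF (0.051 to 0.13), and Pole without control replicate 2 or knockout replicate 1 or 3 (0.056 to 0.11).

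In the main fit, the genes called lower in knockout cells lay on few chromosomes, a pattern seen after the values were known. The 8 members called lower with FGF were Cdc6, Pold2, Rpa1 and Tk1 on chromosome 11 and Mcm4, Cdc45, Rfc4 and Chaf1b on chromosome 16, and these are all the members that lie on those chromosomes. In that fit the 39 members on other chromosomes had 23 higher and 0 lower calls without FGF. With FGF they had 9 higher and 0 lower calls, and the medians were 0.32 and 0.17. Over all tested genes of those chromosomes (10602 genes), 25.0% were called higher and 18.9% lower without FGF and 20.0% higher and 17.4% lower with FGF, with medians of 0.04 and 0.03. The members on chromosomes 11 and 16 had medians of -0.13 and -0.38. Lower calls with FGF numbered 12 without the library labelled knockout replicate 2 and 10 when only the compared groups were fitted. Chromosomes 11 and 16 hold 8 members, so in those fits members on other chromosomes were called lower as well. Chromosomes 11 and 16 were low as a whole. Over all tested genes of chromosome 11 (989 genes) the median log2 fold change was -0.37 without FGF and -0.41 with FGF, and over chromosome 16 (364 genes) it was -0.40 and -0.37. Of their genes, 57.0% and 58.5% were called lower without FGF and 61.4% and 57.4% with FGF. Several chromosomes that held higher calls were high as a whole without FGF, and others were not. On chromosome 5, with 6 of 9 members called higher, 43.1% of all genes were called higher (median 0.23), and on chromosome 7, with 5 of 5, 36.5% (median 0.21). Chromosomes 17 and 19, each with 2 of 2 members called higher, had 47.5% and 39.5% of all genes called higher (medians 0.31 and 0.20). Chromosome 8, with 2 of 6 members called higher, had 12.3% of all genes called higher and 28.6% lower (median -0.10). On chromosome 1, with 1 of 3 members called higher, the shares were 10.3% and 27.1% (median -0.13).

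To set each member beside its surroundings, its log2 fold change was compared with the median of the 25 tested genes on either side of it (fewer near chromosome ends). The neighbour medians ran from -0.43 to 0.42 without FGF and from -0.51 to 0.36 with FGF. The member had the sign of its neighbours' median in 40 of 47 cases without FGF and in 39 with FGF. It lay above its neighbours' median in 40 of 47 cases without FGF and in 22 of 47 with FGF. Across the 47 genes, which share libraries and in part chromosomes, Pearson's r between a member and its neighbours' median was 0.72 without FGF and 0.71 with FGF (Spearman's rho 0.71 and 0.69). The part that the position of a member plays in its knockout difference was not tested.

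**Figure D4:**
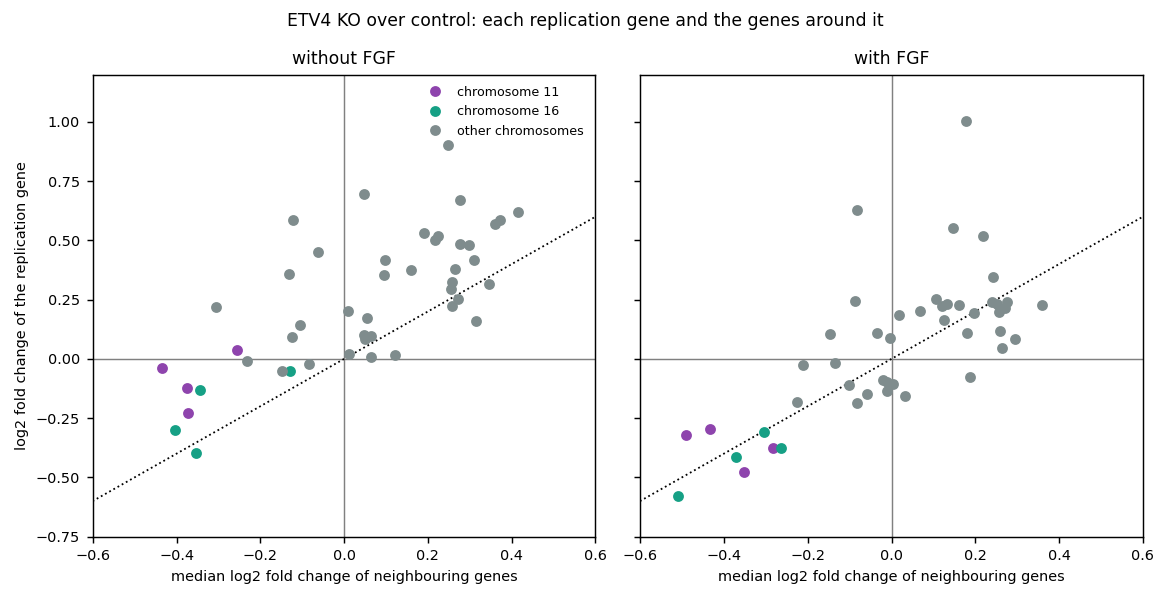
Log2 fold change of each member in ETV4 knockout over control cells (y axis) against the median log2 fold change of its neighbouring tested genes (x axis), without FGF on the left and with FGF on the right; the dotted line marks equal values. Without FGF 40 of 47 genes lie above the line and with FGF 22 of 47, and the 8 members on chromosomes 11 and 16 lie left of 0 in both panels.

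FGF gave no calls among these genes in control cells, while in knockout cells most values were negative and 2 genes were called lower. In knockout cells the summed level was 5566 ± 55.6 CPM with FGF and 6439 ± 492 CPM without it, a ratio of 0.865. In control cells it was 5194 ± 134 CPM with FGF and 5267 ± 89.3 CPM without it, a ratio of 0.986. Of the knockout libraries without FGF, replicate 2 stood at 7005 CPM and the others at 6121 and 6190 CPM. In knockout cells, 0 members were called higher with FGF and 2 lower, against 1.47% of all genes higher and 0.944% lower (2.42% in either direction). The log2 fold change was negative for 42 of 47 members, with a median of -0.22 against -0.02 for all genes. For 28 members every library with FGF lay below every library without it, against 12.5% of all genes, and for none above, against 11.4%; 28 had an unadjusted p under 0.05, against 19.7% of all genes. In control cells, 0 members were called higher and 0 lower, against 0.257% and 0.232% of all genes (0.488% in either direction), and 0 had an unadjusted p under 0.05, against 5.96% of all genes; DESeq2 and limma-voom called 0 as well. Their median was -0.02, with 29 of 47 negative, and 6 members had all FGF libraries below and 2 above, against 9.14% of all genes in each direction. Both FGF in knockout cells and the knockout difference without FGF rest on the same 3 knockout libraries without FGF.

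The called genes were Tyms and Mcm5, both near the threshold. Both calls were lost with the replicate number as a block (adjusted p = 0.052 for Tyms and 0.053 for Mcm5) and when only the compared groups were fitted (0.28 and 0.34), and in 10 and 12 of 20 alternative settings in all. The losses included 8 and 9 of the 12 fits that left out 1 library: any control library without FGF, control replicates 1 and 3 with FGF (for Mcm5 replicate 2 as well) or any knockout library with FGF. Tyms stood at 75.8, 70.3 and 73.2 CPM with FGF in knockout cells, against 88.5, 115 and 91.1 CPM without FGF, and the groups did not overlap. It had a log2 fold change with FGF of -0.42 ± 0.10 in knockout cells (adjusted p = 0.035) and -0.03 ± 0.10 in control cells. Mcm5 stood at 371, 360 and 363 CPM with FGF in knockout cells, against 422, 559 and 436 CPM without FGF, also with no overlap. Its log2 fold change was -0.37 ± 0.09 in knockout cells (adjusted p = 0.0497) and -0.03 ± 0.09 in control cells; without the library labelled knockout replicate 2 it was -0.23 in knockout cells (adjusted p = 0.0022). Pold2 and Gins2 had the most negative values in knockout cells, -0.44 ± 0.12 and -0.42 ± 0.12, and were not called (adjusted p = 0.090 and 0.0998). Members with the opposite sign in knockout cells were Ccne2 (0.14), Rfc1 (0.04), Orc6 (0.03), Pola1 (0.01) and Orc1 (0.00), with adjusted p of 0.58 or more. Without the library labelled knockout replicate 2, the median was -0.15, 44 of 47 were negative, and 8 members were called lower in knockout cells (Ung, Tyms, Slbp, Pola1, Pold2, Mcm5, Lig1 and Mcm6), against 2.98% of all genes.

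The FGF effect in knockout cells minus that in control cells was called for 0 of the 47 genes, against 0.0166% of all genes (2 genes, both higher). It was negative for 42 members, with a median of -0.17 against -0.02 for all genes, and 9 members had an unadjusted p under 0.05, against 10.2% of all genes. Its most negative value was that of Ung, -0.56 ± 0.15 (adjusted p = 0.31): the log2 fold change with FGF was -0.39 ± 0.10 in knockout cells and 0.18 ± 0.10 in control cells. Rfc2 followed at -0.44 ± 0.17 (adjusted p = 0.48). Without the library labelled knockout replicate 2 the count was 0 as well, the median -0.12, and 44 members were negative. DESeq2 and limma-voom also called 0 members.

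**Figure D5:**
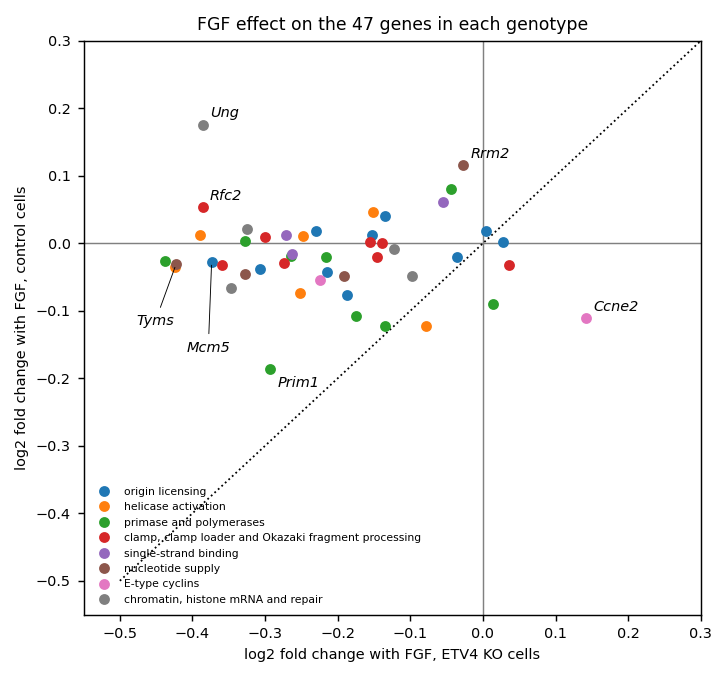
Log2 fold change with FGF of each of the 47 genes in knockout cells (x axis) and in control cells (y axis), coloured by role; the dotted line marks equal effects. In knockout cells 42 genes lie left of 0, with Tyms and Mcm5 called, and in control cells none passed the test.

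Other gene lists of the cell cycle were read in the same way. Set against 22.5% of all genes called higher and 23.3% lower without FGF, and 18% and 22.2% with FGF, some of these counts lay near the background. The higher calls of 40 further replication factors were near the background share. Of these 40, 10 were called higher and 4 lower without FGF (median 0.13) and 6 higher and 3 lower with FGF (median 0.03). Among them were Pold4, the small subunit of polymerase delta (1.94 ± 0.12 without FGF and 1.78 ± 0.12 with FGF, adjusted p = 5.63e-08 and 1.10e-07), and Dbf4, the activator of the Cdc7 kinase (0.50 ± 0.07 and 0.47 ± 0.07, adjusted p = 0.00010 and 0.00018), both higher, and the helicase-nuclease Dna2, lower (-0.52 ± 0.14 and -0.79 ± 0.14, adjusted p = 0.0083 and 0.00062). Of 29 tested regulators of E2F, RB and the G1 to S step, 11 were called higher and 4 lower without FGF and 6 and 2 with FGF. E2f1 was higher without FGF (0.60 ± 0.09, adjusted p = 0.00015), and so were the Cdk inhibitors Cdkn2d (1.12 ± 0.08, adjusted p = 1.40e-07) and Cdkn2c (0.46 ± 0.07, adjusted p = 0.00011). Of 25 genes of G2 and M phase, 14 were called higher and none lower without FGF (median 0.28), and 8 and 1 with FGF (median 0.16), with the spindle genes Prc1 (0.57 ± 0.06, adjusted p = 1.09e-05) and Tpx2 (0.52 ± 0.06, adjusted p = 2.15e-05) among them. Of 25 genes of the S phase checkpoint and of fork repair, 7 were called higher and 5 lower without FGF (median -0.01) and 1 and 4 with FGF (median 0.02). With FGF in knockout cells, 2 genes of G2 and M phase were called lower (Nusap1 and Bub1b, -0.29 ± 0.07 each, adjusted p = 0.037 and 0.041) and none of the other lists of the cell cycle had a call.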

How the data were processed

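RNA was measured in 12 libraries, 3 in each of 4 groups taken from the labels. The deposited table holds unnormalized read counts for each gene symbol. The submitters' processing notes name STAR 2.7.9a, featureCounts, FastQC 0.11.9 and R 4.1.1, and as builds mm10 and hg38. How multi-mapping reads were treated, the strand setting and the annotation are not given in the sources consulted. Totals of 18229429 to 23193244 counts set the precision. Genes were tested in R 4.3.3 by edgeR 4.0.16 (quasi-likelihood F-test), two-sided, with 4 group means, 8 residual degrees of freedom and TMM scaling, on the 12079 genes that filterByExpr kept, over which p-values were adjusted by Benjamini-Hochberg. The SE of a log2 fold change is its size over the square root of F. The fit was tested on simulated data, in which 200 genes had known changes. The simulated data held no outlying library and far fewer changes than the knockout comparisons, where 45.8% and 40.3% of genes were called. The simulation therefore does not check the scaling or the spread under those conditions. Alternatives were DESeq2 1.42.0, limma-voom (limma 3.58.1), upper-quartile and RLE scaling, other filters, the replicate number as a block, the compared groups alone and each library left out. The 47 genes and the other lists were chosen with earlier results of these data known. Values in every library are given for Etv4, for the 4 called members with the smallest adjusted p in each comparison and direction, and for the member of each role with the largest fold change. All 47 members and 11955 of the tested genes matched a GENCODE model. Replicate numbers were taken from the labels, and the check of whether they pair libraries is given with the alternatives.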

Additional observations from a re-analysis of the deposited data

Results flagged for a closer look

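The knockout difference of Mcm3, a subunit of the replicative helicase, took opposite signs by library in the FGF settings: without FGF the 3 knockout libraries (264, 311 and 264 CPM) lay above the 3 control libraries (250, 246 and 264 CPM), and with FGF the 3 knockout libraries (242, 242 and 230 CPM) lay below the 3 control libraries (243, 272 and 254 CPM). The gaps were narrow, and the knockout difference of Mcm3 was called in neither setting (adjusted p = 0.15 without FGF and 0.30 with FGF). The difference between the settings was -0.25 ± 0.11 on the log2 scale and did not pass the test (adjusted p = 0.49).

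The FGF effect on Rfc2, a clamp loader subunit, took opposite signs by library in the genotypes. In knockout cells its level was 81.8, 83.2 and 81.0 CPM with FGF, against 96.4, 137 and 88.5 CPM without FGF, and in control cells it was 68.8, 71.3 and 69.3 CPM with FGF, against 66.3, 67.1 and 68.3 CPM without FGF. The FGF effect was called in neither genotype. It was -0.39 ± 0.12 in knockout cells (adjusted p = 0.12) and 0.05 ± 0.12 in control cells (adjusted p = 0.9997). The difference between the effects was -0.44 ± 0.17 on the log2 scale (adjusted p = 0.48), so it did not pass the test either.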

How the results depend on the processing

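For knockout against control cells in the absence of FGF, the count of members called lower was 3 under RLE scaling, upper-quartile scaling, DESeq2 and limma-voom and 2 under the replicate block, against 1. Of all genes, 23.4% to 25.2% were called lower in those fits, against 23.3%. With FGF, the count of members called higher was 18 when only the compared groups were fitted, against 9. The share of all genes called higher rose as well in that fit, to 27.4% against 18.0%. The count of members called lower with FGF in knockout cells was 9 by DESeq2, 1 by limma-voom, 0 under the replicate block and 0 in the fit of the compared groups alone, against 2. Over all genes, FGF in knockout cells gave 730 calls by DESeq2 and 23 in the compared groups alone, against 292, and FGF in control cells gave 143 and 228, against 59. The difference between the FGF effects gave 66 calls by DESeq2, 4 by limma-voom and 8 without the filter on low counts, against 2. The causes were not tested.

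With each library left out in turn, members called higher and lower numbered 21 to 24 and 1 to 7 without FGF and 6 to 20 and 5 to 12 with FGF, and all genes called numbered 4491 to 6667 and 3963 to 7172. For FGF in knockout cells, 0 to 8 members were called lower and 120 to 950 of all genes; for FGF in control cells 25 to 343 genes, and for the difference 0 to 120 genes, with 0 members called in each. The 7, 20, 12 and 8 all came without the library labelled ETV4 knockout replicate 2. Same-numbered libraries correlated at -0.087 to 0.34 in their deviations from group means over 18 pairs, and differently numbered ones at -0.30 to 0.18 over 36 pairs. The highest value was that of knockout replicate 2 without FGF and control replicate 2 with FGF. These ranges overlap and do not settle whether the numbers pair libraries. The main fit did not pair them, and the replicate block is given as an alternative. Under the replicate block 0 of the 2 FGF calls in knockout cells were kept.

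Of 380 recomputed values for 19 results on named genes, 345 kept direction and call, 35 kept direction and lost the call, and none reversed. The lost calls were those of Ccne1 without FGF (13 of 20 settings, adjusted p 0.051 to 0.16) and of Mcm5 and Tyms with FGF in knockout cells (12 and 10 of 20, adjusted p up to 0.34 and 0.28).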
